A study of Mus musculus with 11 samples.

Results

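The genes described here copy DNA or supply the nucleotides for it. They were taken by symbol from a list of 47, and 42 of these symbols stood alone on at least 1 probe set of the array annotation, out of 15803 genes measured. The other 5 (Pcna, Rfc2, Rpa3, Lig1 and Rrm2) were not found as single symbols and are not analysed here. The 42 genes comprise the 6 subunits of the MCM2-7 helicase, 3 genes of origin licensing, 8 of helicase activation, 9 of primase and the polymerases, 6 of the clamp loader and the single-strand binding protein RPA, 3 of strand joining and topology, 4 of nucleotide supply and 3 of chromatin copying. In the role of strand joining and topology the measured genes are Fen1, Rnaseh2a and Top2a, as Lig1, its strand-joining gene, was not found. A gene's value averages its probe sets on the log2 scale, each a short stretch of a transcript that the array measures on its own.

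RNA came from NSC34, a mouse line made by fusing neuroblastoma with spinal cord cells, whose cells divide in culture and carry motor neuron features. Cells were transfected with a pSUPERIOR vector that expresses a short hairpin RNA and were kept as stable clones under puromycin, so every group, controls included, carried a hairpin vector and went through selection. The groups were shTardbp, with a hairpin against the mRNA of the RNA-binding protein TDP-43 (arrays 1 to 4), shGFP, with a control hairpin against GFP (arrays 1, 2, 3 and 5), and shLuciferase, with a control hairpin against Renilla luciferase (arrays 1, 2 and 4). The stretch of Tardbp that the hairpin targets, as the labels give it, is shown because it defines the knockdown.
Tardbp hairpin target: tctaagcaaagccccagacgagcct
How many clones each group holds, and whether its arrays came from separate clones or cultures, is not given in the sources used here, so the p-values measure the spread between these arrays, which may be technical.

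Before a cell copies its genome, the origin recognition complex, Cdc6 and Cdt1 load rings of MCM2-7 onto DNA, and the kinase Cdc7 with Dbf4, together with Mcm10, Cdc45 and the GINS complex, turns each ring into a moving helicase. Primase and polymerase alpha then lay short primers, which polymerases delta and epsilon extend with the sliding clamp and its loader RFC, while RPA covers single strands. The transcripts of most of these genes are made around the start of S phase under transcription factors of the E2F family and are low in cells that have left the cycle. Nerve cells that have matured do not replicate, and NSC34 cells do.

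The median log2 value of an array lay between 6.82 and 6.92. Tardbp itself was lower on all 4 shTardbp arrays (8.82, 8.80, 8.997 and 8.91) than on all 7 control arrays (9.08 to 9.42 in shGFP and 9.20 to 9.38 in shLuciferase), with a log2 change of -0.40 (SE 0.0722, limma adjusted p = 7.13e-04; exact two-sided permutation p = 0.00303, the smallest that 330 splits allow). Of 17 measured NSC34 markers, the motor neuron genes Chat and Mnx1 had shTardbp means under the lower quartile of each array's probe set values, whereas Isl1, the vesicular acetylcholine transporter gene Slc18a3 and the neuronal genes Stmn2 and Uchl1 lay above it. Of these 17 markers 4 fell and 2 rose. Of the markers of other cells, 1 of 13 glial and Schwann cell genes rose, 2 of 12 fibroblast genes rose and 2 fell, 1 of 12 muscle, epithelial and endothelial genes rose and 1 of 8 leukocyte genes rose, where 17.0% of all genes fell and 13.5% rose. Their summed linear levels were 3376 to 3591 in shTardbp, 3358 to 3589 in shGFP and 2965 to 3448 in shLuciferase for glia, and 1906 to 2366, 3156 to 3299 and 1690 to 1953 for fibroblasts. The corresponding sums were 458 to 495, 428 to 441 and 462 to 486 for muscle, epithelium and endothelium and 192 to 218, 172 to 207 and 190 to 209 for leukocytes. Dcn, a fibroblast matrix gene, accounts for the largest fall among these markers (log2 change -1.61), and the part of such cells in the results below was not tested.

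The comparison of shTardbp with both controls asked whether replication genes differ in cells with less Tardbp mRNA. They were lower: 34 of the 42 fell and none rose by limma's test (Benjamini-Hochberg over all 15803 genes, threshold 0.05), where 17.0% of all genes fell and 13.5% rose. All 42 log2 changes were negative, including the 8 that did not pass, as were those of 7568 of all 15803 genes. At an unadjusted p under 0.05 in limma's test 38 fell, a count whose share over all genes was not taken. The median log2 change was -0.49, or 1.40-fold, against 0.00717 over all genes, and the changes ran from -1.07 to -0.06. In 29 genes all 4 shTardbp arrays lay below all 7 controls, which 9.82% of all genes do, and 14 fell at least 1.5-fold, as 3.33% of all genes did. Every group mean of the 42 lay above that lower quartile. Of the 34 calls, 15 were lost when the first letter of the array codes, described further on, entered the fit as a block. All shTardbp arrays share that letter, and shLuciferase 4 is the only control with it. The letter can therefore hardly be told apart from the knockdown. Whether fewer cells were copying DNA or each cell held less of these transcripts cannot be told apart in RNA from whole cultures.

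**Figure D1:**
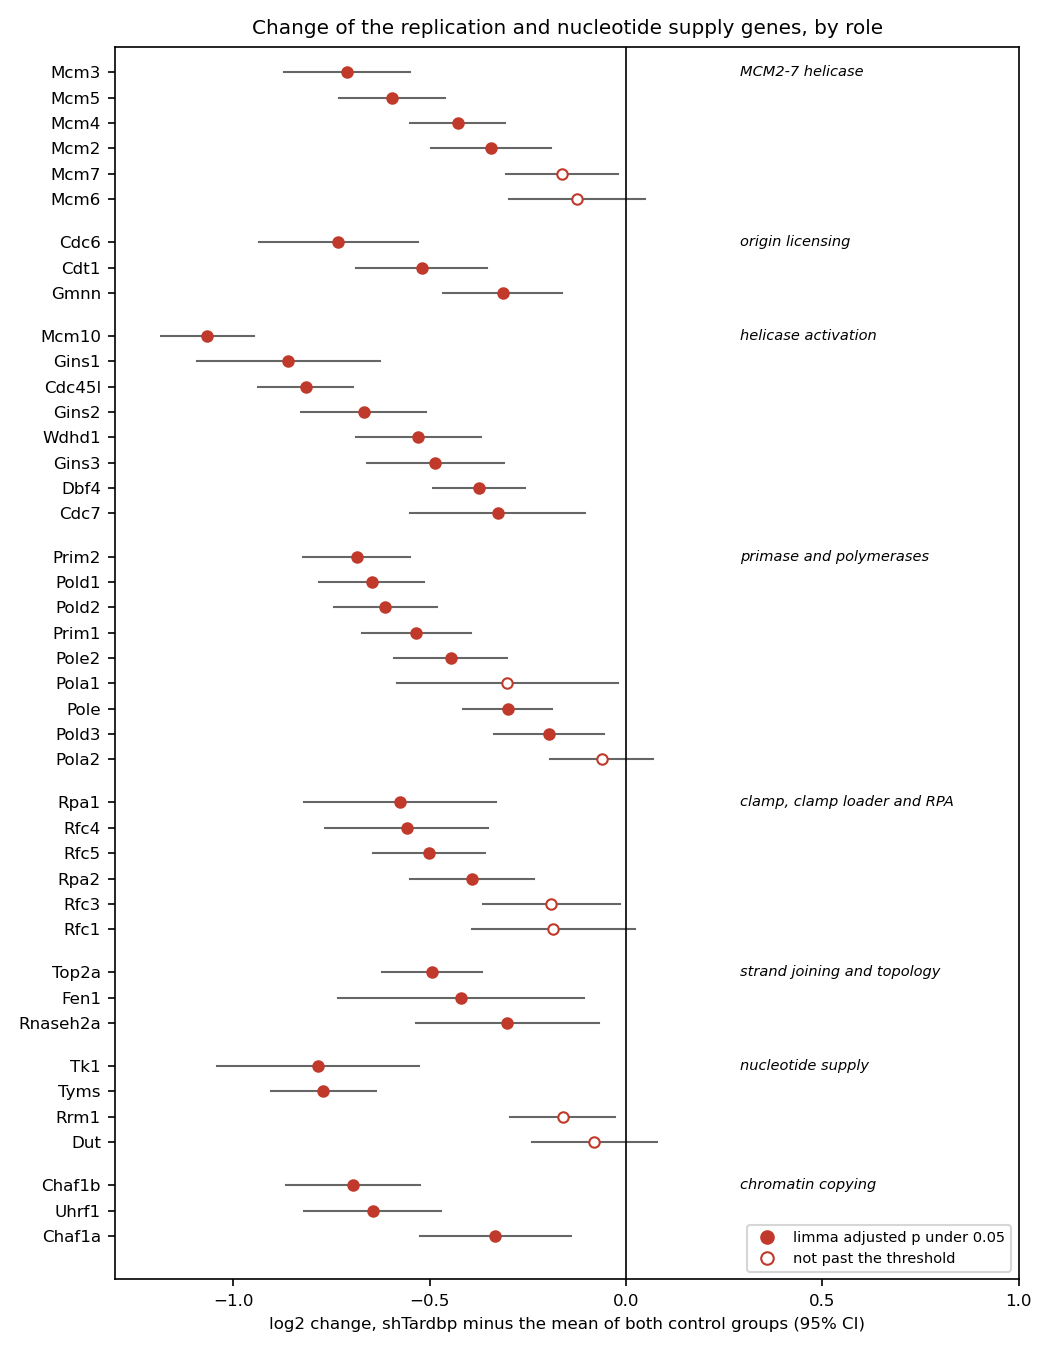
Log2 change of each of the 42 genes in shTardbp relative to the mean of both control group means (x axis), grouped by role (y axis). Points are limma estimates, bars are 95% confidence intervals, and filled points mark adjusted p under 0.05. Every point lies left of 0, from -1.07 for Mcm10 to -0.06 for Pola2, and 34 of the 42 are filled.

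The fall was of like size on each shTardbp array. Set against the mean of both control groups, the median over the 42 genes was -0.52, -0.46, -0.48 and -0.41 on the log2 scale in shTardbp 1 to 4. It was -0.06, 0.06, 0.02 and 5.80e-05 in shGFP 1, 2, 3 and 5, and 0.00405, 0.09 and -0.06 in shLuciferase 1, 2 and 4. All 4 shTardbp arrays lay below all 7 controls on this measure. A shTardbp array held the lowest of the 11 values for 41 of the 42 genes, most often shTardbp 3 with 19, and the exception, Dut, was lowest in shLuciferase 1. The highest of the 11 values never fell on a shTardbp array. Over all 15803 genes, shTardbp 1 to 4 were lowest in 1725, 1175, 1276 and 1693 and highest in 1970, 1505, 987 and 1393.

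The helicase ring divided into subunits that fell and subunits that did not pass. Mcm3 was at 10.998, 11.23, 11.21 and 11.09 in shGFP 1, 2, 3 and 5, at 11.07, 11.08 and 10.80 in shLuciferase 1, 2 and 4 and at 10.30, 10.49, 10.27 and 10.33 in shTardbp 1 to 4. The shTardbp values lay below every control, and the gene fell 1.64-fold (log2 change -0.71, SE 0.0745, limma adjusted p = 8.09e-06). Values of Mcm5 were 10.68, 10.85, 10.81 and 10.62 in shGFP, 10.89, 10.87 and 10.73 in shLuciferase and 10.21, 10.24, 10.13 and 10.17 in shTardbp, again without overlap, a 1.51-fold fall (log2 change -0.60, SE 0.0625, limma adjusted p = 8.22e-06). Mcm4, which with Mcm6 and Mcm7 forms the part of the ring that unwinds DNA in isolation, fell 1.35-fold (log2 change -0.43, SE 0.0564, limma adjusted p = 5.56e-05). Its values of 10.31, 10.31, 10.28 and 10.39 in shTardbp lay below 10.63, 10.68, 10.81 and 10.80 in shGFP and 10.78, 10.80 and 10.73 in shLuciferase. Mcm2 also fell (log2 change -0.34, SE 0.0709, limma adjusted p = 0.0019), although shLuciferase 4 (10.46) lay within the shTardbp range of 10.25 to 10.48. In contrast, Mcm6 was at 9.99, 10.34, 10.21 and 10.33 in shGFP, 10.11, 10.31 and 10.003 in shLuciferase and 10.03, 10.14, 9.98 and 10.08 in shTardbp, so that the groups overlapped (log2 change -0.12, 95% confidence interval -0.30 to 0.05, limma adjusted p = 0.302). Mcm7, measured by 4 probe sets, had a log2 change of -0.16 (95% confidence interval -0.31 to -0.02, limma adjusted p = 0.0854), and its shTardbp values of 10.35, 10.48, 10.21 and 10.38 included 1 above the lowest control (10.44). It passed with array weights (limma adjusted p = 0.0243). Once the common shift of its chromosomal neighbours was taken off each array, it passed relative to those neighbours (limma adjusted p = 0.00466).

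**Figure D2:**
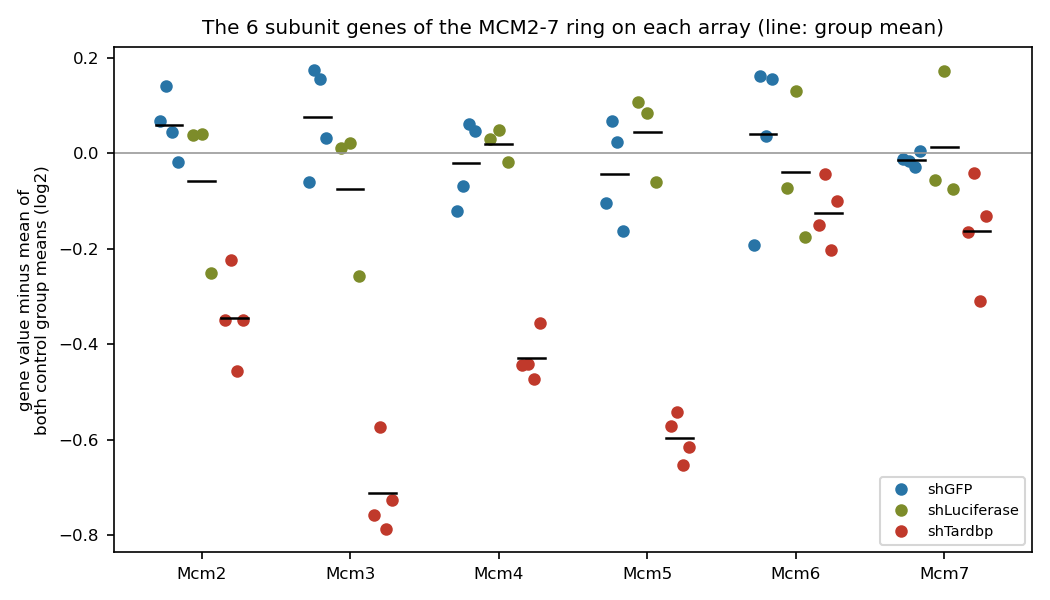
Value of each MCM2-7 subunit gene on each array minus the mean of both control group means (y axis, log2), with genes on the x axis, points for arrays coloured by group and lines for group means. The shTardbp points of Mcm3 and Mcm5 lie well below the controls (means of -0.71 and -0.60), while those of Mcm6 and Mcm7 (means of -0.12 and -0.16) overlap them.

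The subunits act in equal numbers in the ring, so their changes were compared with each other directly. For every pair of subunits of a complex the difference of their log2 values was taken on each array and the 4 shTardbp arrays were set against the 7 controls by an exact two-sided permutation test, with p-values adjusted over all 37 pairs (15 of them in the ring). Of the ring's pairs 11 differed, and in 9 of the 15 the shTardbp arrays lay apart from all controls. The share over pairs of other genes was not taken, so these counts have no background beside them. The ring's pairs reuse the same 6 genes and are not independent. For Mcm2 minus Mcm7 and Mcm3 minus Mcm4, both called, shLuciferase 4 (0.01 and 0.07) lay inside the shTardbp range. The first letter of the array codes, described further on, was not part of these tests. The difference Mcm3 minus Mcm6 was 0.25 to 0.35 on the shTardbp arrays and 0.76 to 1.01 on the controls, a shift of -0.59 (exact permutation adjusted p = 0.0102, the smallest these tests allow). Mcm5 minus Mcm6 shifted by -0.46 and Mcm3 minus Mcm7 by -0.56 (same adjusted p), and Mcm2 fell less than Mcm3 by 0.37. Mcm6 against Mcm7 differed by 0.03 (exact permutation adjusted p = 0.708). With the median of each gene's probe sets in place of the mean, 6 of the ring's 11 calls were kept, all of them pairs of Mcm3 or Mcm5 with another subunit, and 10 of the 18 calls over all complexes. These pairs show unequal change and do not show that Mcm6 or Mcm7 kept their level.

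Promoters of the ring genes were read from RefSeq (GRCm38.p6), as 250 bases before to 50 after each transcript start. Of the 42 genes 36 had a promoter in the table, while Mcm4, Gmnn, Gins1, Gins2, Prim2 and Pole had none there. The E2F word was searched on both strands as TTTCCCGC, TTTCGCGC, TTTGCCGC or TTTGGCGC. It was found in 13 of the 36 genes (36.1%) and in 704 of 27025 genes of the table (2.60%). The CCAAT box (CCAAT, bound by NF-Y) was in 55.6% of the 36 and 41.1% of all, and the cell cycle homology region (TTTGAA or TTCGAA) in 27.8% and 21.7%. A CCAAT box cannot lie inside an E2F word. The promoters of 4 ring genes follow because all hold the word although their changes differ, with E2F words in capitals.
Mcm3 (chr1:20820263-20820562, reverse strand): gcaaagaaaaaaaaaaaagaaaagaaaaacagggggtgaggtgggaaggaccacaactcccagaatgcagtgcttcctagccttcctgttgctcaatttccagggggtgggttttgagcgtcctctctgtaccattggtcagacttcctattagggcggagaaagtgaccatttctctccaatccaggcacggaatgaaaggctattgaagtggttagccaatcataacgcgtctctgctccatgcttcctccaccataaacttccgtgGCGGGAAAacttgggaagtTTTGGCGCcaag
Mcm5 (chr8:75109259-75109558, forward strand): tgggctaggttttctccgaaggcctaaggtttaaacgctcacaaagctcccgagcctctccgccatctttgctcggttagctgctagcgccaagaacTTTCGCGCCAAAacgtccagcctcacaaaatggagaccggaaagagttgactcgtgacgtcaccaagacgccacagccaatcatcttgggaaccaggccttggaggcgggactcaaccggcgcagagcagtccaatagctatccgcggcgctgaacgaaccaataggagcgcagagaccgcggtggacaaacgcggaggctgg
Mcm6 (chr1:128359656-128359955, reverse strand): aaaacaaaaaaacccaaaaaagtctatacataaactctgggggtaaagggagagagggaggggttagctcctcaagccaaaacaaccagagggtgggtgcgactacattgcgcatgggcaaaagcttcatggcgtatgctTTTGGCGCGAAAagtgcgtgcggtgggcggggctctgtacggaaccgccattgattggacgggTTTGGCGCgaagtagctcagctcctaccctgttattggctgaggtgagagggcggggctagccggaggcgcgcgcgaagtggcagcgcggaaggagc
Mcm7 (chr5:138171834-138172133, reverse strand): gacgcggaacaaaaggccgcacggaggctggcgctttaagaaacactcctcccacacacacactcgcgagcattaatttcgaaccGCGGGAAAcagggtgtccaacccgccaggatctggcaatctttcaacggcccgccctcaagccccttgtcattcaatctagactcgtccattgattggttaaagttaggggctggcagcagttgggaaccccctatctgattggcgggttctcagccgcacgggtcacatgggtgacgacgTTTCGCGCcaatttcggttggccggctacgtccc
A match of letters is a description, not a binding site or a cause. In Mcm5 a pair of words on opposite strands overlaps, as does the upstream pair in Mcm6. Mcm6 holds 3 words, and Mcm3, Mcm5 and the Mcm7 promoter shown hold 2 each. The other Mcm7 promoter of the table and the promoter of Mcm2, which fell, hold none. The 13 genes with a word had a median log2 change of -0.49 (9 of 13 fell), and the 23 without had -0.49 as well (19 of 23 fell). Mcm10, Cdc45l, Tyms and Tk1, which fell most among the genes with a promoter in the table, held none of these words in this window.

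All 3 licensing genes fell, where 17.0% of all genes did. Cdc6, the ATPase that loads the ring, was at 6.73, 6.88, 7.13 and 7.14 in shGFP, 6.99, 7.36 and 7.32 in shLuciferase and 6.26, 6.38, 6.37 and 6.46 in shTardbp, and fell 1.66-fold (log2 change -0.73, SE 0.0940, limma adjusted p = 4.44e-05). The shTardbp arrays lay below all controls by at least 0.27. Cdt1, its partner in loading, was at 10.67, 10.86, 10.68 and 10.66 in shGFP, 10.61, 10.63 and 10.38 in shLuciferase and 10.09, 10.30, 10.09 and 9.96 in shTardbp and fell 1.43-fold (log2 change -0.52, SE 0.0773, limma adjusted p = 1.51e-04). Geminin (Gmnn), which blocks Cdt1 after the start of S phase, fell as well, from 5.28, 5.41, 5.22 and 5.35 in shGFP and 5.17, 5.36 and 5.20 in shLuciferase to 4.93, 5.05, 4.80 and 5.10 (log2 change -0.31, SE 0.0704, limma adjusted p = 0.00351). None of the 3 genes overlapped with the controls, where 9.82% of all genes lay below all controls.

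All 8 genes of helicase activation fell, where 17.0% of all genes did. Of the 8, 7 did not overlap with the controls, where 9.82% of all genes lay below all controls. Mcm10, Gins1 and Cdc45l had the 3 largest changes of the 42 genes. Mcm10, a replisome factor needed to start unwinding, was at 9.56, 9.56, 9.61 and 9.60 in shGFP, 9.67, 9.73 and 9.65 in shLuciferase and 8.65, 8.62, 8.47 and 8.53 in shTardbp. It fell 2.09-fold (log2 change -1.07, SE 0.0550, limma adjusted p = 1.61e-08), and the nearest shTardbp and control values were 0.90 apart. Cdc45l, the older symbol of Cdc45, whose protein rides with the ring, stood at 8.52, 8.49, 8.46 and 8.39 in shGFP, 8.28, 8.31 and 8.28 in shLuciferase and 7.53, 7.68, 7.55 and 7.47 in shTardbp and fell 1.76-fold (log2 change -0.82, SE 0.0563, limma adjusted p = 2.27e-07). Of the GINS subunits, Gins1 was at 8.09, 8.32, 7.79 and 8.03 in shGFP, 8.36, 8.29 and 8.04 in shLuciferase and 7.09, 7.53, 7.14 and 7.37 in shTardbp (log2 change -0.86, SE 0.108, limma adjusted p = 3.79e-05).

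Gins2 (4 probe sets) fell from a range of 10.07 to 10.34 in shGFP and 10.11 to 10.32 in shLuciferase to a range of 9.43 to 9.69 (log2 change -0.67, SE 0.0737, limma adjusted p = 1.26e-05), and Gins3 by a log2 change of -0.49 (SE 0.0814). None of the 3 GINS pairs differed in change by the exact permutation test (differences of -0.35 to -0.17, exact permutation adjusted p = 0.149 to 0.297), which does not show that they changed alike. Dbf4, the activator of the kinase that fires origins, and its catalytic partner Cdc7 had log2 changes of -0.37 and -0.33 (limma adjusted p = 1.37e-04 and 0.0265). Cdc7 was the single overlapping gene of this group because shGFP 2 (7.46) lay inside the shTardbp range of 7.40 to 7.62, and its call was lost with the median of its probe sets (adjusted p = 0.275) and on leaving out shLuciferase 1, shLuciferase 2, shTardbp 1 or shTardbp 2 (0.0516 to 0.0902). With the replicate number as a block the log2 change of Cdc7 was -0.31 (limma adjusted p = 0.0674). Wdhd1, which ties polymerase alpha to the helicase, fell to 9.18, 9.08, 9.21 and 9.33 from 9.42, 9.49, 9.72 and 9.68 in shGFP and 9.95, 9.92 and 9.79 in shLuciferase (log2 change -0.53, SE 0.0738, limma adjusted p = 8.92e-05).

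**Figure D3:**
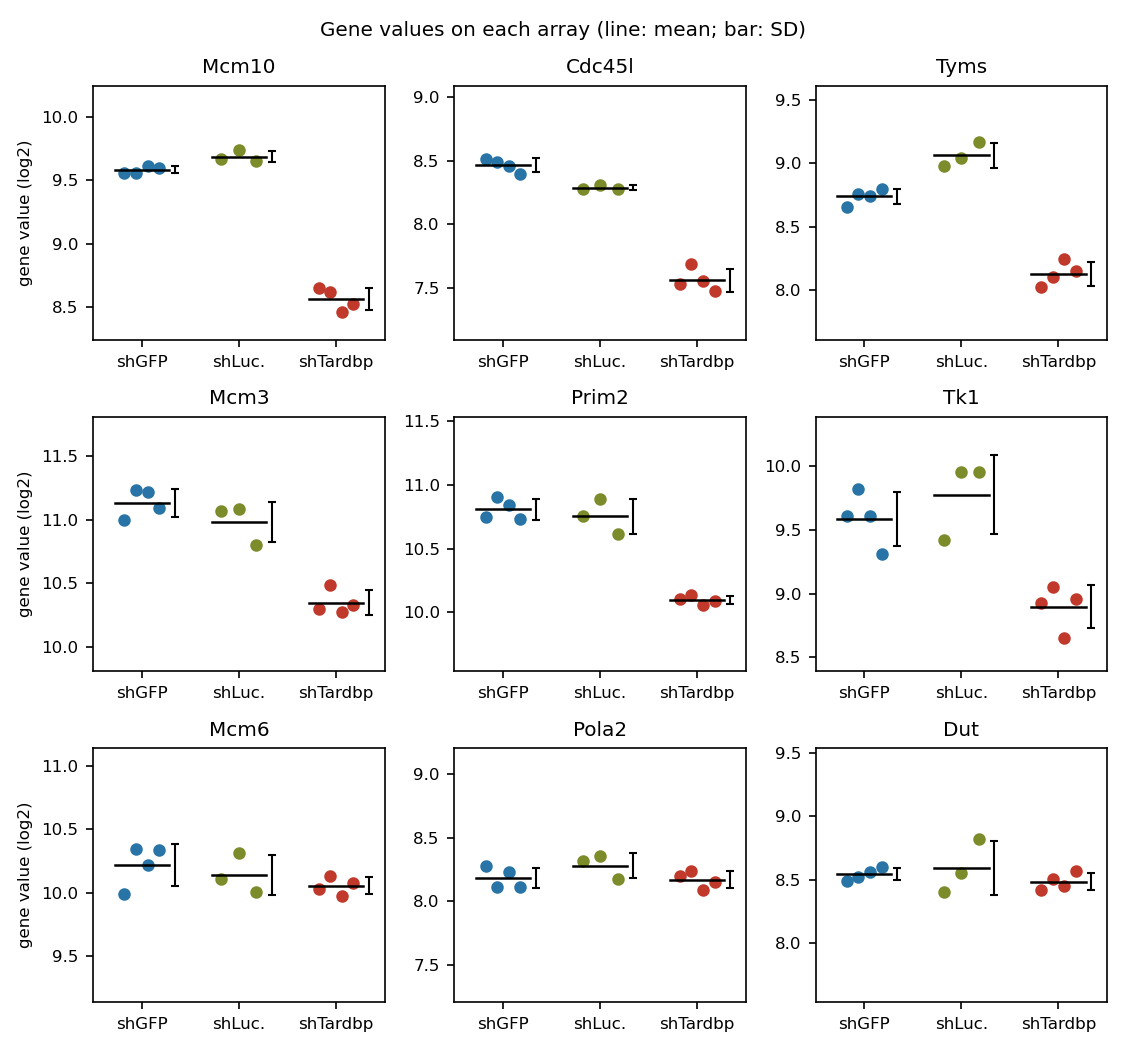
Gene values (y axis, log2) on each array for 9 of the 42 genes, with the groups on the x axis, points for arrays, lines for group means and bars for SD. Mcm10, Cdc45l, Tyms, Mcm3, Prim2 and Tk1 are lower on all 4 shTardbp arrays than on any control, and Mcm6, Pola2 and Dut overlap.

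Among primase and polymerase genes 7 of 9 fell, where 17.0% of all genes did. Those that did not pass were the subunits of polymerase alpha. Prim2, the large primase subunit, was at 10.75, 10.91, 10.84 and 10.73 in shGFP, 10.75, 10.89 and 10.62 in shLuciferase and 10.10, 10.13, 10.06 and 10.09 in shTardbp and fell 1.61-fold (log2 change -0.69, SE 0.0634, limma adjusted p = 2.85e-06). Its catalytic partner Prim1 fell 1.45-fold, from a range of 10.36 to 10.44 in shGFP and 10.45 to 10.52 in shLuciferase to a range of 9.71 to 10.04 in shTardbp (log2 change -0.53, SE 0.0640, limma adjusted p = 2.56e-05). Pola2, the accessory subunit of the polymerase bound to this primase, was at 8.28, 8.12, 8.23 and 8.12 in shGFP, 8.32, 8.35 and 8.18 in shLuciferase and 8.20, 8.24, 8.09 and 8.15 in shTardbp (log2 change -0.06, 95% confidence interval -0.19 to 0.07, limma adjusted p = 0.537). Within the complex, Pola2 and Prim2 differed in change by 0.63 (exact permutation adjusted p = 0.0102), and Pola2 and Prim1 by 0.47 (same adjusted p, or 0.166 when medians of probe sets were used). Relative to its chromosomal neighbours, whose shift was taken off each array, Pola2 was lower (log2 change -0.28, limma adjusted p = 0.00636). Its own value, as given above, did not pass.

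Pola1, the catalytic subunit, was at 7.69, 7.80, 8.26 and 8.23 in shGFP, 7.89, 7.94 and 8.39 in shLuciferase and 7.67, 7.51, 7.80 and 7.95 in shTardbp, and its log2 change of -0.30 (SE 0.131) did not pass (limma adjusted p = 0.105), although it did without shGFP 1 (0.0482) and with the replicate number as a block (log2 change -0.33, limma adjusted p = 0.00785). Each shTardbp value lay below the same-numbered control values. Of polymerase delta, the catalytic subunit Pold1 was at 8.14, 8.01, 8.02 and 7.99 in shGFP, 8.13, 8.19 and 8.02 in shLuciferase and 7.52, 7.49, 7.37 and 7.33 in shTardbp and fell 1.57-fold (log2 change -0.65, SE 0.0617, limma adjusted p = 3.67e-06). The accessory subunit Pold2 fell 1.53-fold, from 11.40, 11.32, 11.22 and 11.23 in shGFP and 11.32, 11.39 and 11.30 in shLuciferase to 10.70, 10.83, 10.62 and 10.66 in shTardbp (log2 change -0.61, SE 0.0609, limma adjusted p = 5.09e-06).

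The polymerase delta subunit Pold3 moved less than both. Its log2 change was -0.20 (limma adjusted p = 0.0346), it differed from Pold1 by -0.44 and from Pold2 by -0.41 (exact permutation adjusted p = 0.0102 for both), and its call was lost with the median of its probe sets (0.0690), with arrays centred (0.0553), with the neighbours' shift taken off (0.0730) and on leaving out any of shGFP 1, shGFP 3, shLuciferase 2, shTardbp 1 or shTardbp 4 (0.0514 to 0.124). Pole, the catalytic subunit of polymerase epsilon with 51 probe sets, fell from 9.47, 9.42, 9.53 and 9.43 in shGFP and 9.76, 9.73 and 9.63 in shLuciferase to 9.28, 9.25, 9.28 and 9.31 (log2 change -0.30, SE 0.0523, limma adjusted p = 5.28e-04), and Pole2 from a range of 10.28 to 10.51 in shGFP and 10.17 to 10.23 in shLuciferase to a range of 9.69 to 9.96 in shTardbp (log2 change -0.45, SE 0.0670, limma adjusted p = 1.62e-04).

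Of the clamp loader and RPA genes 4 of 6 fell, where 17.0% of all genes did. Rpa1, the large subunit of the single-strand binding protein, was at 8.98, 9.43, 9.11 and 9.16 in shGFP, 9.19, 9.51 and 8.89 in shLuciferase and 8.63, 8.81, 8.48 and 8.51 in shTardbp, the groups close but apart (log2 change -0.57, SE 0.114, limma adjusted p = 0.00142). Rpa2 followed with a log2 change of -0.39 (SE 0.0735). Of the loader RFC, Rfc4 was at 11.32, 11.43, 11.47 and 11.47 in shGFP, 11.11, 11.18 and 11.57 in shLuciferase and 10.59, 10.68, 10.94 and 10.97 in shTardbp (log2 change -0.56, SE 0.0965, limma adjusted p = 5.13e-04), and Rfc5, with 2 probe sets, at 11.90, 11.90, 11.79 and 11.65 in shGFP, 11.78, 11.85 and 11.66 in shLuciferase and 11.25, 11.38, 11.24 and 11.27 in shTardbp (log2 change -0.50, SE 0.0666, limma adjusted p = 5.98e-05). The large subunit Rfc1 (log2 change -0.19, 95% confidence interval -0.39 to 0.02) and Rfc3 (-0.19, -0.36 to -0.02) did not pass, although Rfc3 did without shLuciferase 1 (limma adjusted p = 0.0347) and with the neighbours' shift taken off (0.0359). Rfc3 differed in change from Rfc5 by 0.32 and from Rfc4 by 0.38 (exact permutation adjusted p = 0.0299 and 0.0498), and both calls were lost when medians of probe sets were used (0.286 and 0.241).

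Top2a, the topoisomerase that untangles copied chromosomes, fell from 11.24, 11.38, 11.43 and 11.50 in shGFP and 11.41, 11.38 and 11.39 in shLuciferase to 10.91, 10.82, 10.95 and 10.90 in shTardbp (log2 change -0.49, SE 0.0592, limma adjusted p = 2.50e-05). The 4 shTardbp values lay within 0.13 of each other, and all 34 probe sets of the gene were lower. Its promoter is shown because it holds 6 CCAAT boxes, in capitals, besides 4 matches of the cell cycle homology region, more of either than any other of the 36 genes.
Top2a (chr11:99024140-99024439, reverse strand): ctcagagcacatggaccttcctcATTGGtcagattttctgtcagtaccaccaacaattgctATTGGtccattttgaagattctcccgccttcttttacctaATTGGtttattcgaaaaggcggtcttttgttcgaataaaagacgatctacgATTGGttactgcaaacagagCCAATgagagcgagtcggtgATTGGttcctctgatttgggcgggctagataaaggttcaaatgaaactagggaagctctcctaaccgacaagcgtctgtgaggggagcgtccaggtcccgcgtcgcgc
Fen1, the nuclease that trims flaps of lagging strand fragments, and Rnaseh2a, the catalytic subunit of RNase H2, which removes RNA from DNA, passed narrowly (log2 changes of -0.42 and -0.30, limma adjusted p = 0.0415 and 0.0484). Fen1 rests on 3 probe sets and was at 6.95, 7.57, 7.43 and 6.82 in shGFP, 7.37, 7.85 and 7.20 in shLuciferase and 6.97, 6.99, 6.77 and 6.93 in shTardbp. Rnaseh2a was at 8.80, 9.18, 8.71 and 8.70 in shGFP, 9.003, 8.85 and 8.71 in shLuciferase and 8.49, 8.85, 8.47 and 8.39 in shTardbp. Both genes overlapped with the controls, and each lost its call on leaving out any of 7 arrays (up to 0.122 and 0.152).

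Of the 4 nucleotide supply genes 2 fell, where 17.0% of all genes did. Thymidylate synthase (Tyms), which makes the thymidine building block from deoxyuridine monophosphate, was at 8.66, 8.76, 8.75 and 8.80 in shGFP, 8.98, 9.04 and 9.17 in shLuciferase and 8.02, 8.10, 8.25 and 8.15 in shTardbp and fell 1.71-fold (log2 change -0.77, SE 0.0619, limma adjusted p = 8.07e-07). Thymidine kinase Tk1, which salvages thymidine, was at 9.61, 9.82, 9.61 and 9.31 in shGFP, 9.42, 9.96 and 9.95 in shLuciferase and 8.93, 9.05, 8.65 and 8.96 in shTardbp and fell 1.72-fold (log2 change -0.78, SE 0.119, limma adjusted p = 1.87e-04, 2 probe sets). Both genes were lower on all 4 shTardbp arrays than on any control, as 9.82% of all genes were. Rrm1, the large subunit of ribonucleotide reductase, was at 11.43, 11.63, 11.56 and 11.58 in shGFP, 11.60, 11.75 and 11.50 in shLuciferase and 11.45, 11.45, 11.39 and 11.41 in shTardbp (log2 change -0.16, 95% confidence interval -0.29 to -0.03, limma adjusted p = 0.0666). It passed in 6 alternatives, such as without shLuciferase 4 (0.0264) or without shGFP 1 (0.0346). Dut, which destroys deoxyuridine triphosphate, was at 8.49, 8.52, 8.56 and 8.60 in shGFP, 8.40, 8.55 and 8.82 in shLuciferase and 8.42, 8.51, 8.45 and 8.57 in shTardbp, with a log2 change of -0.08 (95% confidence interval -0.24 to 0.08).

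All 3 genes that copy chromatin with the DNA fell, but with the array letter as a block only Chaf1b kept its call (Uhrf1 had an adjusted p of 0.0545, and Chaf1a turned to 0.0369 on the log2 scale, adjusted p = 0.870). Chaf1b, of the histone chaperone CAF-1, was at 9.51, 9.85, 9.81 and 9.67 in shGFP, 9.61, 9.69 and 9.36 in shLuciferase and 8.91, 8.96, 8.89 and 8.99 in shTardbp (log2 change -0.70, SE 0.0791, limma adjusted p = 1.65e-05). Its partner Chaf1a fell less (log2 change -0.33, SE 0.0892, limma adjusted p = 0.0108), with shLuciferase 4 (7.93) among the shTardbp values of 7.92, 8.03, 7.80 and 7.89 and the other controls above them (8.11, 8.26, 8.37 and 8.30 in shGFP, 8.36 and 8.39 in shLuciferase), and the pair differed in change by 0.37 (exact permutation adjusted p = 0.0102). Uhrf1, which brings the maintenance DNA methyltransferase to new DNA, was at 10.08, 10.41, 10.42 and 10.37 in shGFP, 10.51, 10.63 and 10.32 in shLuciferase and 9.85, 9.80, 9.64 and 9.75 in shTardbp (log2 change -0.65, SE 0.0811, limma adjusted p = 3.73e-05). Only Chaf1a of these overlapped with the controls. Of all genes 17.0% fell and 9.82% lay below all controls.

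Each control was also compared on its own, with the shTardbp arrays shared by both comparisons. Against shGFP 31 of 42 fell and none rose (median log2 change -0.49), where 15.5% of all genes fell and 12.4% rose. Against shLuciferase 31 fell and none rose (median -0.46), where 14.3% fell and 11.8% rose. With the replicate number as a block 29 fell against shGFP, and the calls of Pole (adjusted p = 0.125) and Chaf1a (0.0914) were lost. All 4 shTardbp arrays lay below all shGFP arrays in 32 genes (15.5% of all genes) and below all shLuciferase arrays in 33 (16.9%). Against each control 30 genes passed, as 9.39% of all genes did, and none of the 42 changes was positive in either comparison. Of all 15803 genes, 8265 had a positive change against shGFP and 8053 against shLuciferase. Between the controls, 3 of 42 were lower in shGFP than in shLuciferase and none was higher, where 4.82% of all genes were lower and 6.26% higher. These were Tyms (log2 difference -0.32, limma adjusted p = 0.0128), Pole (-0.25, 0.0222) and Wdhd1 (-0.30, 0.0433). The change of these genes was larger against shLuciferase, which follows from their choice by a lower value in shGFP than in shLuciferase. For Tyms it was -0.61 against shGFP and -0.93 against shLuciferase, for Pole -0.18 and -0.42, and for Wdhd1 -0.38 and -0.68.

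In the array codes of the labels, shLuciferase 4 shares its first letter, P, with all shTardbp arrays, and the 6 remaining controls have a C. No source used here explains the letters. As shLuciferase 4 is the only P control, a block for the letter rests on that array against the other shLuciferase arrays. It can hardly be told apart from the knockdown. Standard errors were wider with it, as for Gins1 (0.198 against 0.108) and Uhrf1 (0.142 against 0.0811). Fitted with this letter as a blocking factor, 20 of the 42 genes fell, 19 of them among the 34 above and Dut in addition, while the share of all genes that fell dropped from 17.0% to 8.14%. The median of the 42 was then -0.41, and the change of Tardbp itself, -0.29, did not pass (limma adjusted p = 0.173). The 15 genes that lost their call were Mcm2, Cdt1, Gmnn, Gins1, Cdc7, Wdhd1, Pold3, Pole, Rfc5, Rpa1, Rpa2, Fen1, Rnaseh2a, Uhrf1 and Chaf1a (adjusted p = 0.0537 to 0.870). Within the P arrays alone, all 4 shTardbp values lay below shLuciferase 4 in 36 of the 42 genes, as in 36.9% of all genes. The median difference over these 36 genes was -0.48 on the log2 scale, and over all 42 it was -0.39. The shTardbp mean of Mcm10 minus shLuciferase 4 was -1.09, and minus the mean of the C arrays -1.05, on the log2 scale. For Tyms these differences were -1.04 and -0.70, and for Cdc45l -0.72 and -0.85. Differences were smaller against shLuciferase 4 for Mcm2 (-0.09 and -0.40), Chaf1a (-0.02 and -0.39), Rpa1 (-0.28 and -0.62), Cdt1 (-0.27 and -0.58) and, above shLuciferase 4, Mcm6 (0.05 and -0.16). The difference was less negative against shLuciferase 4 than against the C arrays, or positive, in 28 of the 42 genes. The share of all genes with this pattern was not taken, so the count has no background beside it.

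Most single probe sets of these genes were lower too. The 42 genes hold 644 probe sets, of which 611 were lower in shTardbp, 351 fell by limma's test over all probe sets and none rose, where 8.41% of all probe sets with 1 symbol fell and 7.36% rose. All 22 probe sets of Mcm10 fell, between -0.68 and -1.89, as did all 14 of Mcm3, all 14 of Prim1 and all 13 of Pold2. Of Top2a 31 of 34 fell and of Cdc45l 16 of 22, with 2 of the others above 0 (up to 0.13). In Cdc6 the 9 probe sets ran from -1.44 to -0.13, and in Gmnn from -1.08 to 0.09, with 2 of 7 past the threshold. For Mcm6 none of 20 passed and 16 were lower, and for Pola2 none of 25 passed and 18 were lower (-0.45 to 0.59). The lowest probe set of Pola1 was at -1.23, while 34 of its 37 were lower and 3 fell. With the letter as a block 69 of the 644 fell and 1 rose. The share over all probe sets was not taken for that fit, so these counts have no background beside them.

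**Figure D4:**
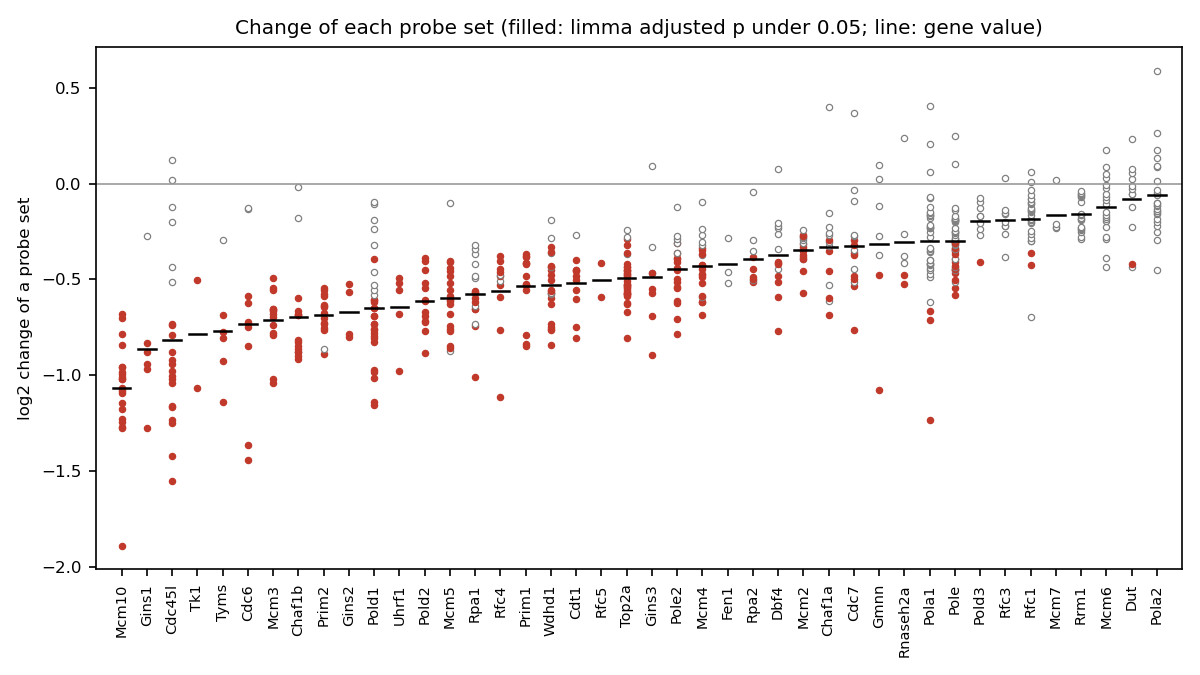
Log2 change of every probe set (y axis) of the 42 genes in shTardbp against both controls, with genes on the x axis in the order of their gene values. Filled points mark adjusted p under 0.05 and lines the gene value. Of 644 points 611 lie below 0, and no point above 0 is filled.

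Other genes of the pathway were read from lists made by function. These lists were drawn up with earlier results of these data known, so they are no independent check. Of 40 further replication factors measured, 30 fell and 1 rose (median log2 change -0.42), where 17.0% of all genes fell and 13.5% rose. Exo1, an exonuclease, fell 2.11-fold (log2 change -1.08, SE 0.0752, limma adjusted p = 2.50e-07), Esco2, which acetylates cohesin during replication, 1.84-fold (log2 -0.88), Chtf18 of an alternative clamp loader 1.75-fold (-0.81) and Orc2l, the older symbol of the origin recognition subunit Orc2, 1.61-fold (-0.68). The gene that rose was Pold4, the small subunit of polymerase delta, at 6.64, 6.78, 6.36 and 6.44 in shGFP, 6.60, 6.61 and 6.42 in shLuciferase and 6.69, 7.29, 6.89 and 6.95 in shTardbp (log2 change 0.40, SE 0.108, limma adjusted p = 0.0107; named after its value was seen). Its shTardbp 1 value lay below that of shGFP 2, so the groups overlapped.

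Of 37 other genes of nucleotide synthesis 21 fell and 3 rose (median -0.27), where 17.0% of all genes fell and 13.5% rose. Ada, adenosine deaminase, fell 1.98-fold (log2 change -0.98, SE 0.0826, limma adjusted p = 1.20e-06), Umps, which makes uridine monophosphate, 1.82-fold (log2 -0.86), and the folate enzyme gene Shmt1 1.44-fold (-0.53). Those that rose were Adssl1 of adenine nucleotide synthesis (1.88-fold, log2 change 0.91, SE 0.113, limma adjusted p = 3.43e-05), Cmpk2, a mitochondrial nucleotide kinase (log2 0.38 against both, 0.03 against shGFP alone), and Rrm2b, the ribonucleotide reductase subunit used outside S phase. Rrm2b was at 7.07, 7.29, 7.18 and 7.42 in shGFP, 6.77, 6.92 and 7.08 in shLuciferase and 7.34, 7.29, 7.48 and 7.32 in shTardbp (log2 change 0.28, SE 0.0794, limma adjusted p = 0.016; named, like Cmpk2, after its value was seen). The groups of Rrm2b overlapped, with shGFP 2 and shGFP 5 above the lowest shTardbp value, and its log2 change was 0.12 against shGFP and 0.44 against shLuciferase.

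Genes that act in mitosis, after DNA is copied, fell too. All 18 measured mitosis markers fell (median log2 change -0.63), where 17.0% of all genes did. Among them were Cdc20, an activator of the anaphase-promoting complex (2.19-fold, log2 -1.13), the kinetochore gene Ndc80 (-1.03), the spindle gene Hmmr (-1.04) and the checkpoint kinase gene Ttk (-0.80). This list, too, was drawn up with earlier results of these data known. The difference between the lists was not tested.

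**Figure D5:**
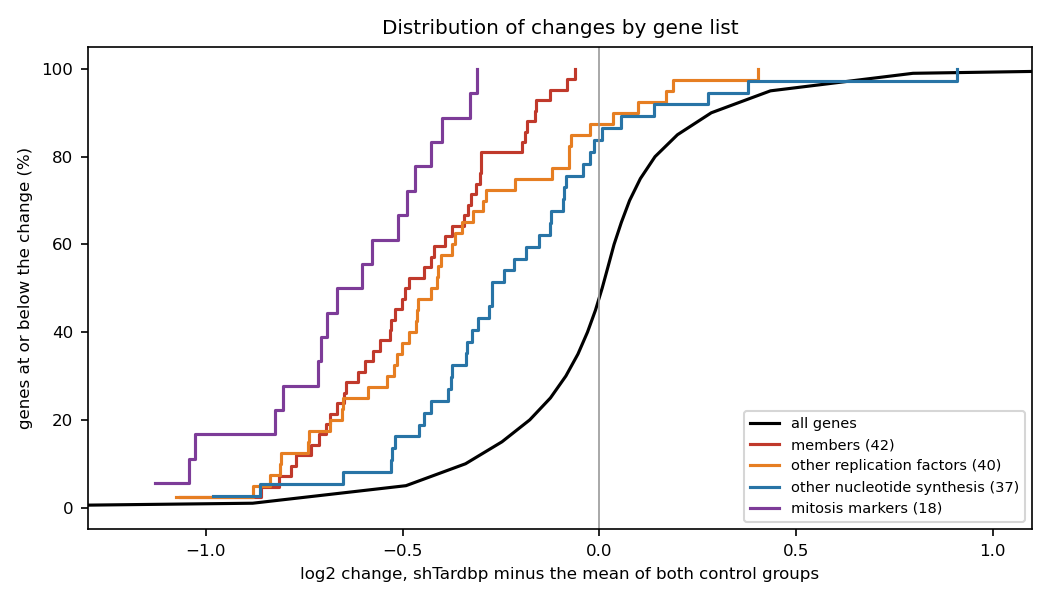
Share of genes (y axis, %) at or below each log2 change in shTardbp against both controls (x axis) for the 42 genes, the other lists and all genes measured. The curve of the 42 lies wholly left of 0 with a median of -0.49, between the mitosis markers (-0.63) and the other nucleotide genes (-0.27), and the median of all genes is 0.00717.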

How the data were processed

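RNA was hybridised to Affymetrix whole-transcript arrays, 1 per sample. The deposited log2 values of 194293 probe sets were made by the authors with Partek and RMA, per the submitters' processing notes. Not given in the sources used here were their versions, background settings and genome build. In the platform annotation 179496 probe sets had 1 symbol, and only these were used, as the mean per gene, with no filter on low values. Array number limits the precision.

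All 3 groups entered a single limma fit (version 3.58.1, R 4.3.3, lmFit and eBayes) of every gene, and a further fit of every probe set. Adjusted p-values are Benjamini-Hochberg values over the whole table, with a threshold of 0.05. Errors are standard errors. Tested on simulated data of 15803 genes (shTardbp against both controls), 42 of 50 genes lowered by 0.5 and 50 of 50 lowered by 1 were found, with 9 false calls. Values on every array are given for the 3 genes of each role with the largest changes and for those that differed between the controls. Up to 4 genes of each other list are named by smallest adjusted p, and the rest were named after their values were seen. The subunit pairs were added after the data were seen. The genes and lists were chosen with earlier results of these data known.

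The labels do not say what replicate numbers mark. Deviations of same-numbered arrays from their group means correlated at -0.06 to 0.26 over all genes, over 0.1 in 5 of 8 pairs. All 3 pairs of shGFP and shTardbp were over 0.1 (0.116 to 0.201), and the highest correlation was between shGFP 2 and shLuciferase 2. The main fit left the number out, and it was tried as a block over all 11 arrays. Alternatives were the median of probe sets, brighter probe sets or genes only, quantile normalization again, centring, blocks for array letter and number, array weights, trended variance, subtraction of the shift of 10 neighbours on each side, and leaving out each array.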

Additional observations from a re-analysis of the deposited data

Results flagged for a closer look

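In groups of 4 arrays, a value was taken up here when its gap to the nearest other value exceeded Dixon's 95% critical share of the group's range. This held for 5 of the 86 groups examined (42 genes and Tardbp in shTardbp and shGFP), and chance flags about 1 in 20. Cdt1 was high in shGFP 2 (10.86 against 10.66 to 10.68 in the other 3 arrays). Gins2 was low in shGFP 5 (10.07 against 10.33 to 10.34). In shGFP 1, Dbf4 (9.65 against 9.73 to 9.74) and Uhrf1 (10.08 against 10.37 to 10.42) were low. Rpa2 was high in shTardbp 2 (9.10 against 8.83 to 8.86). All 5 of these genes fell in shTardbp, and none lost its call on leaving out any of the 11 arrays.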

How the results depend on the processing

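Of the 34 genes that fell, 30 lost their call in none of the 20 alternatives other than the array letter as a block. Cdc7, Fen1, Pold3 and Rnaseh2a lost it in at least 1 of them (limma adjusted p up to 0.275, 0.124, 0.124 and 0.152). With only genes above the median level used, 33 of the 34 kept their call, and the remaining gene was not in that fit. On leaving out single arrays the number that fell ran from 30 to 35 against both controls (medians -0.50 to -0.46), 28 to 32 against shGFP (-0.51 to -0.48) and 27 to 33 against shLuciferase (-0.48 to -0.43), and none rose. With the array letter as a block these numbers were 20 (median -0.41), 16 (-0.38) and 25 (-0.39). Under that block Chaf1a, Mcm6 and Pola2 turned to 0.0369, 0.0464 and 0.0718, and Tardbp was at -0.29 (limma adjusted p = 0.173). Of the probe sets 69 fell and 1 rose, with the share over all probe sets not taken. Of the other replication factors 17 fell and 0 rose, and of the other nucleotide genes 8 fell and 1 rose. Over all genes 8.14% fell and 7.74% rose in that fit, and the cause of these shifts was not tested. Leaving out single arrays, Tardbp was at -0.44 to -0.37, 284 to 365 probe sets fell and 0 to 1 rose, 29 to 30 replication factors fell and 1 to 2 rose, and 20 to 22 nucleotide genes fell and 2 to 3 rose. With array weights 3 other replication factors rose and 1 of the 42 genes was higher in shGFP than in shLuciferase. With the median of the probe sets 1 other nucleotide gene rose and 10 subunit pairs differed. The number lower in shGFP than in shLuciferase was 1 after subtraction of the neighbours' shift, and 1 to 3 without single arrays; subunit pairs then numbered 12 to 20. The replicate number used as a block left 33 of the 34 calls against both controls (Cdc7 lost it and Pola1 gained one), 29 genes lower against shGFP, 31 against shLuciferase and 1 gene (Tyms) between the controls. The number of arrays limits what small changes, such as that of Dut, can show.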
